A study of Mus musculus with 8 samples.

Results

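The quadriceps transcriptome of dy2J/dy2J mice, which model the congenital muscular dystrophy caused by LAMA2 mutations, was set against that of wild-type (WT) mice, gene by gene. Genes entered the comparison when they reached 1 FPKM (fragments per length of transcript, scaled to library size) in at least 2 of the 5 dy2J and WT libraries. That minimum was met by 12238 of the 43628 genes of the table, and 12227 of them could be tested. The other 11 had too many values listed at 0 that are unlikely to be real levels. Among these 11 was Myh4, the fast IIB myosin heavy chain, listed at 0 in every WT library and in mdx 1 and at 1779 to 3278 FPKM in the rest.

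The dy2J group held 11 C57BL/6J mice homozygous for the Lama2 dy-2J allele, whose RNA was combined into 2 pools of 5 to 6 mice (dy2J 1 and dy2J 2). The WT group held 14 mice of strain C57BL/10ScSnJ in 3 pools of 4 to 6 mice (WT 1 to WT 3). A further group of 15 mdx mice (C57BL/10ScSn-Dmdmdx/J, 3 pools), which lack full-length dystrophin, shared the estimate of spread and is cited where its level helps to place a dy2J value. All mice were 8 weeks old and are labelled male, and each n counts pools, so errors and p-values describe the spread between pools and not between animals. The dy2J and WT mice differ in strain as well as in Lama2, so genotype and strain cannot be told apart in any difference below.

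Lama2 encodes the alpha chain of merosin, the laminin of the muscle basement membrane. Merosin polymerizes around each fibre and is held there by dystroglycan and integrin receptors, which connect it through the membrane to dystrophin and the cytoskeleton. The dy2J allele is known as a splice-site mutation that yields a chain lacking part of the domain needed for polymerization. Fibres with defective merosin are known to degenerate and regenerate, with inflammation, fibrosis and, in peripheral nerve, poor myelination.

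Differences are given as dy2J minus WT of the mean log2(FPKM + 1), with the standard error (SE) of limma, which fitted all 8 libraries with a term per genotype. "Rose" and "fell" are used for genes with a Benjamini-Hochberg adjusted p under 0.05 over all genes tested, called changed below. By this rule 1567 genes (12.8% of those tested) rose and 1250 (10.2%) fell, 23.0% in all. In each of the 2817 the dy2J and WT values did not overlap. The call and the lack of overlap rest on the same values, so the second is no separate support for the first. The share of all tested genes without overlap is not given here. The median difference of all genes was -0.002 and the median size of the called differences was 0.68. A difference of at least 1 on the log2 scale was reached by 459 of the genes that rose and 152 of those that fell. With quantile normalization the split was 1422 higher and 1728 lower.

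Within a group, log2 values of 2 libraries correlated across genes with Pearson's r of 0.987 to 0.991, and between WT and dy2J with r of 0.940 to 0.963. Genes are not independent replicates, so these values only describe the libraries. The muscle-fibre marker Ckm was abundant in all of them, at 9982 to 10800 FPKM in WT and 5553 and 5995 in dy2J. Ckm is itself among the genes that fell, a call lost without WT 1, WT 2 or either dy2J pool. Genes of the Y chromosome, however, went against the label of both dy2J pools. Ddx3y stood at 24.8, 24.5 and 24.9 FPKM in WT and at 7.23 and 9.59 in dy2J, and Uty at 7.46, 6.77 and 7.63 against 1.98 and 3.69. Kdm5c, an X-linked gene, was at 5.12, 5.73 and 5.17 in WT and 11.1 and 8.14 in dy2J, whereas Xist was listed at 0 in WT and at 0.0834 and 0.101 in dy2J. Whether the dy2J pools hold RNA of female mice was not tested. Both pools are affected, and the part of this in any difference below was not tested either.

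Lama2 itself was at 9.42, 9.34 and 9.43 FPKM in WT (9.40 ± 0.05, SD, n = 3) and at 5.31 and 5.07 in dy2J (5.19 ± 0.17, n = 2). As in every gene that fell, both dy2J pools lay below every WT pool. The difference was -0.75 ± 0.13 (SE, adjusted p = 0.00436, limma). In mdx the gene stood at 9.32, 10.9 and 12.7, and the difference dy2J minus mdx was -0.94 (adjusted p = 0.00357). Nnt, a mitochondrial transhydrogenase gene known to carry a deletion in C57BL/6J, was at 25.4, 28.7 and 26.6 in WT and 13.1 and 14.0 in dy2J (-0.94 ± 0.12, adjusted p = 0.00116). In mdx, on the other background, Nnt stood at 16.4 to 20.1.

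**Figure D1:**
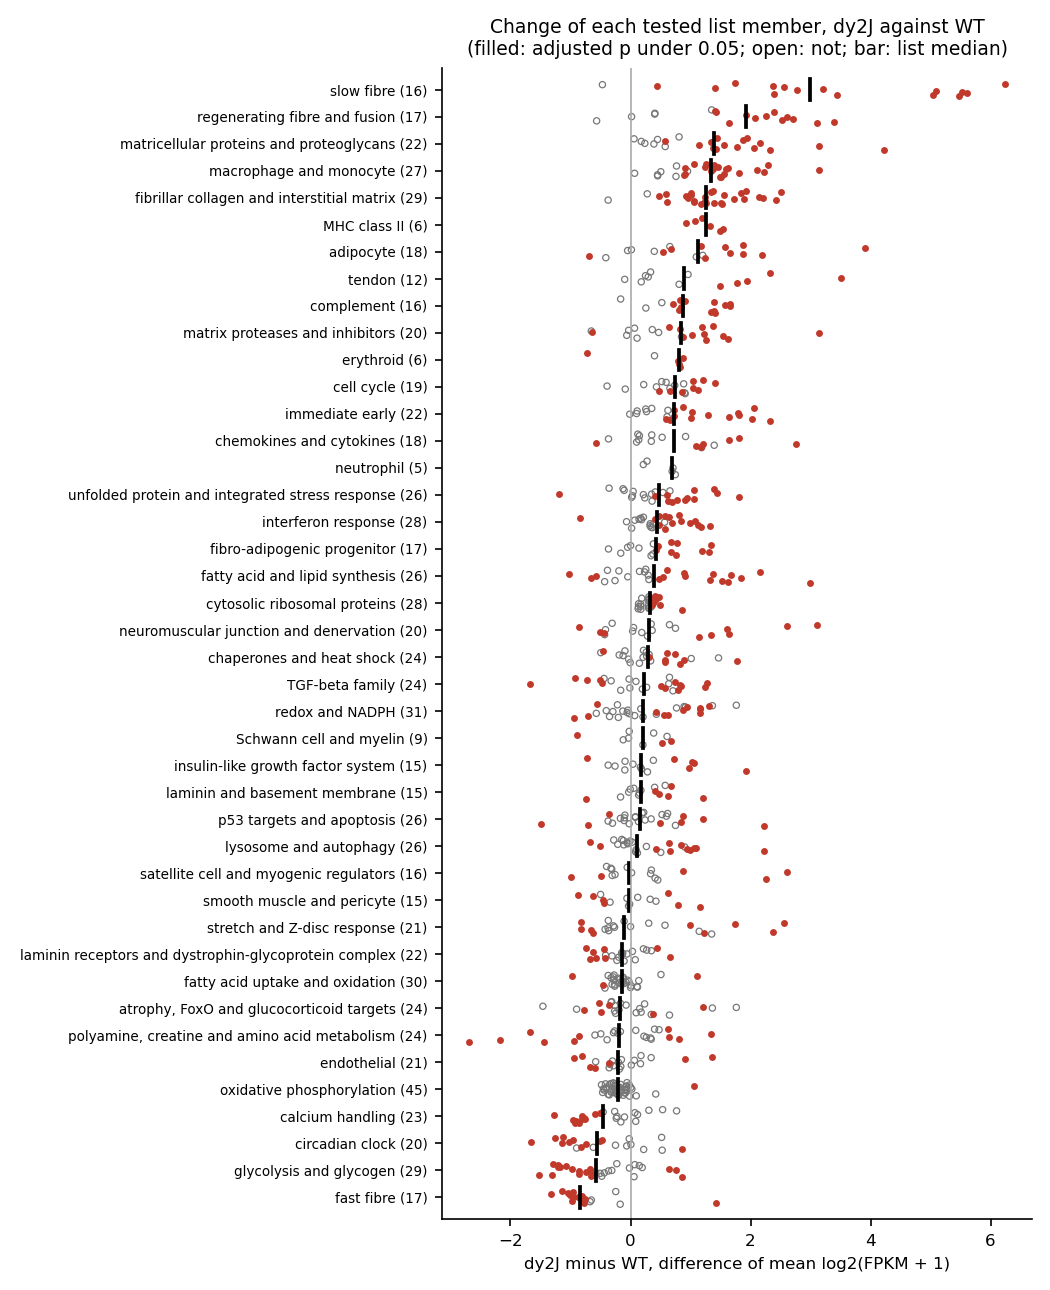
Difference of each tested gene (dy2J minus WT, log2(FPKM + 1), horizontal axis) for the lists with at least 5 tested members, whose number stands in brackets; filled points passed the test and bars are list medians. Slow-fibre genes have the highest median (2.99) and fast-fibre genes the lowest (-0.84).

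The other chains of merosin, Lamb1 and Lamc1, rose by less than 1 on the log2 scale. Of 15 tested laminin and basement membrane genes, 5 rose and 1, Lama2, fell. Lama4, the laminin chain known to appear in muscle when merosin is deficient, was at 12.5, 12.3 and 8.84 FPKM in WT and at 27.3 and 26.6 in dy2J (1.21 ± 0.23, adjusted p = 0.00749). Lamb1 and Lamc1, the partner chains of Lama2 in merosin, differed by 0.62 ± 0.13 (adjusted p = 0.0109) and 0.48 ± 0.11 (adjusted p = 0.0132). The calls of Lama4 and Lamb1 were lost without dy2J 1, and that of Lamc1 without either dy2J pool. Of the list, 3 rose without any 1 WT library and 5 without any 1 mdx library, and fewer than 5 rose without either dy2J pool. Lama1 was at or near 0 in every library, with a highest value of 0.0296 FPKM.

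On the receptor side, 6 of 22 genes of the laminin receptors and dystrophin-glycoprotein complex fell and 2 rose. Sgca, which encodes alpha-sarcoglycan, fell from 185, 180 and 179 FPKM to 110 and 116 (-0.68 ± 0.16, adjusted p = 0.0191). Plec, which encodes the cytoskeletal linker plectin, was at 84.0, 117 and 114 in WT and 56.7 and 67.6 in dy2J (-0.74 ± 0.16, adjusted p = 0.0133). In contrast Dag1, the gene of dystroglycan, differed by -0.11 ± 0.12 (adjusted p = 0.543), Itga7, the laminin-binding integrin chain of muscle, by 0.35 ± 0.13 (adjusted p = 0.0855) and Dmd by -0.23 ± 0.14 (adjusted p = 0.285). The falls of this list were sensitive to single pools, with 0 left without dy2J 1, 2 without dy2J 2, 3 without WT 1, 2 without WT 2, 3 without WT 3 and 3 with the replicate number as a block. The 2 rises became 0 without dy2J 1, 1 without WT 1, WT 2 or dy2J 2, 1 with no expression minimum and 4 in a fit of the dy2J and WT libraries alone. Sgca was lost without WT 1, WT 2 or either dy2J pool, and Plec without dy2J 1.

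The slow-fibre programme made up the largest rises. Slow, or type I, fibres carry their own isoforms of myosin, troponin and tropomyosin and the calcium pump Atp2a2, and are sparse in mouse quadriceps. Of 16 tested slow-fibre genes 15 rose and 0 fell, with a median difference of 2.99 against -0.002 over all genes, and 14 rose when any 1 of the WT or dy2J libraries was left out. The remaining tested gene, Pln, a regulator of the slow calcium pump, was at 1.71, 2.70 and 3.50 FPKM in WT and 1.45 and 1.70 in dy2J (adjusted p = 0.26). Of the 2 members under the minimum, Myh6 was at 0.358 or less in every library, and Myh7b at 0.137 to 0.299 in WT and 0.834 and 1.06 in dy2J.

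Sln, the small protein that restrains the calcium pump, went from 1.44, 3.17 and 3.23 FPKM to 244 and 286 (6.24 ± 0.30, adjusted p = 6.92e-06, limma). That was the largest rise among called genes with no missing value, predicted and unnamed genes left out. Myh7, the slow myosin heavy chain, went from 0.576, 1.06 and 0.197 to 54.7 and 87.2 (5.48 ± 0.25, adjusted p = 6.92e-06). The ventricular and slow light chain Myl2 stood at 10.4, 8.96 and 9.71 in WT and at 285 and 430 in dy2J (5.04 ± 0.23, adjusted p = 6.92e-06). In all these genes the lower dy2J pool exceeded the highest WT pool by a wide margin, and dy2J 2 was the higher dy2J pool. The slow troponins Tnnc1, Tnni1 and Tnnt1 rose by 5.60 ± 0.43, 5.53 ± 0.22 and 5.08 ± 0.26. Their adjusted p were 0.000141, 6.92e-06 and 9.46e-06.

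Among further members Myl3 rose by 3.44 ± 0.37, Atp2a2 by 3.21 ± 0.14 and Tpm3 by 2.78 ± 0.25. Several members belong to the Z-disc or the calcium store: Myoz2, which anchors calcineurin at the Z-disc, rose from levels of 23.5 to 26.9 to 154 and 152, and Csrp3, a stretch-associated LIM protein gene, from 31.7, 38.6 and 38.4 to 181 and 204. Casq2, the slow calsequestrin, rose by 1.41 ± 0.22, and Mybpc1, slow myosin-binding protein C, by 0.44 ± 0.14 (adjusted p = 0.0498), a call lost without any 1 of the 5 libraries. The fitted values of Myh7 carry an uncertainty of identity, because the antisense transcript Mhrt overlaps it and strand use is not given. Mhrt was at 0.0592 to 0.285 in WT and 3.03 and 5.18 in dy2J.

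Promoters were read for the slow-fibre genes because they moved together. In RefSeq's annotation of GRCm38.p6, 13 of the 15 that rose had entries (19 promoters), and Sln and Atp2a2 did not. The MCAT motif (CATTCC, or GGAATG on the other strand), which TEAD factors are known to bind in muscle genes, was sought on both strands in the 250 bases before each start. It occurred in 3 of the 19, of Myl3, Tnnc1 and Myh7, and in 12.6% of 32851 mouse promoters. Capitals mark the matches, which start 177 and 149 bases before the start of Myl3, 58 before that of Tnnc1 and 201 before that of Myh7. The windows are chr9:110763428-110763677 (plus strand), chr14:31208062-31208311 (plus strand) and chr14:54994627-54994876 (minus strand).
Myl3: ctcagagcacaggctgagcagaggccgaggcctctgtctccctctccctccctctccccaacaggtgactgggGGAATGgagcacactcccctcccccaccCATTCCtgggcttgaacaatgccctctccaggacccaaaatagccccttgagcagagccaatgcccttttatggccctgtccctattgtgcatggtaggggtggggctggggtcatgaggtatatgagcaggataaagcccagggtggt
Tnnc1: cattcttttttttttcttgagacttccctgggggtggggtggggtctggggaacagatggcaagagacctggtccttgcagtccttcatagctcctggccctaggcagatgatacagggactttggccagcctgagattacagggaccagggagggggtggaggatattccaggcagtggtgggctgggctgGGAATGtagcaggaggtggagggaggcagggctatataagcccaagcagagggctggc
Myh7: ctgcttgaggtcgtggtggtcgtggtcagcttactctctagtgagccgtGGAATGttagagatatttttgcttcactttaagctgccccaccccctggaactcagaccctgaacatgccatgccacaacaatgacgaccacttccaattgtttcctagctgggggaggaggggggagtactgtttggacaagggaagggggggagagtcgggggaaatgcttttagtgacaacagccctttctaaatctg

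The MEF2 motif, the site of MEF2 factors, was found in 4 of the 19 slow-fibre promoters (of Casq2, Fhl1, Myoz2 and Tnnt1) and in 10.1% of 32851 mouse promoters. None of the 3 windows with MCAT matches held it, so the matches do not overlap. These are matches of letters and do not show a bound site.

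**Figure D2:**
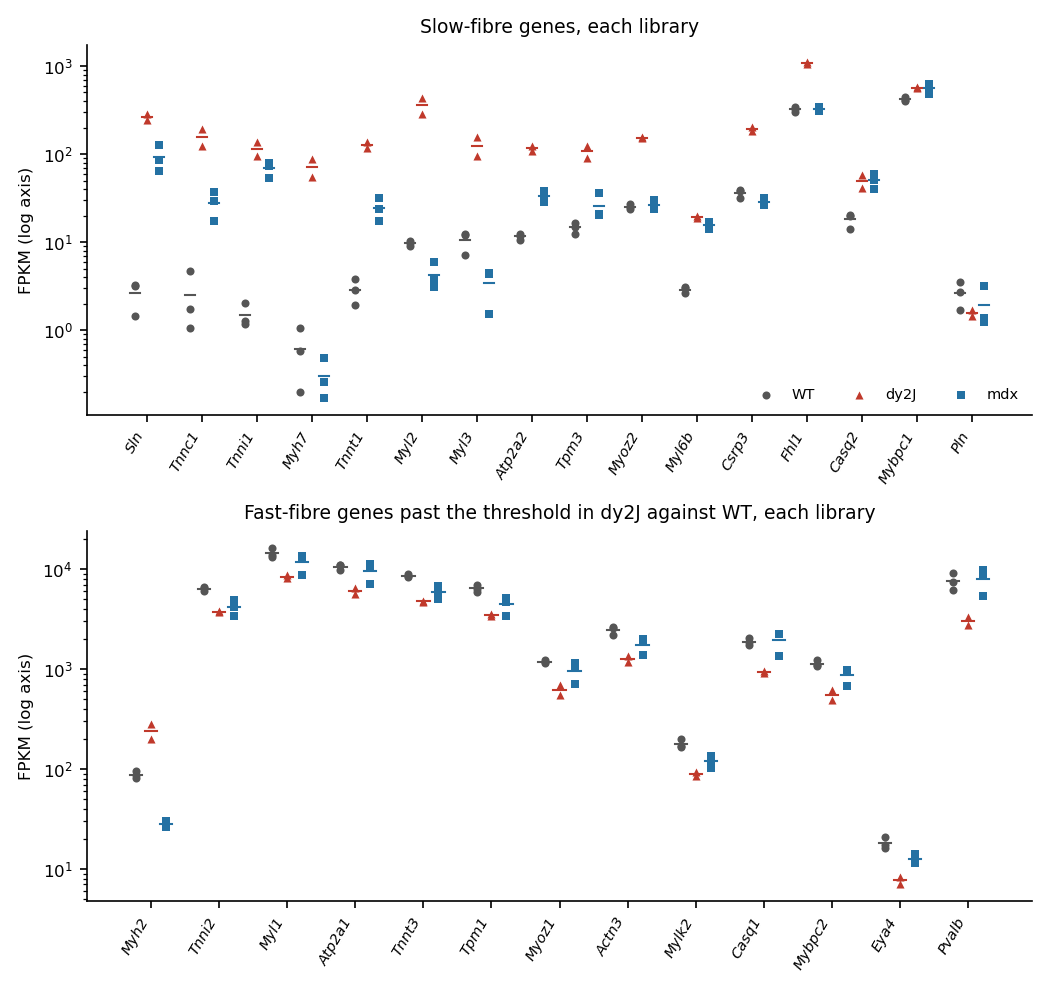
FPKM (log axis) of each tested slow-fibre gene (top) and of the fast-fibre genes that passed the test (bottom) in every library, with a line at each group mean. For Myh7 and Myl2 the dy2J pools stand apart from both other groups, whereas Sln, Tnni1, Tnnt1 and Tnnc1 are also above WT in mdx.

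Fast-fibre genes moved the other way, with 12 of 17 lower and 1 higher and a median of -0.84. Pvalb, the calcium buffer of fast fibres, fell from 9230, 7537 and 6175 FPKM to 2747 and 3321 (-1.32 ± 0.28, adjusted p = 0.0114). Actn3, the fast-fibre alpha-actinin, fell by 0.96 on the log2 scale and Atp2a1, the fast calcium pump, by 0.81. Both transcripts were at 1190 FPKM or more in dy2J. Eya4, a transcriptional cofactor, fell from 20.9, 17.6 and 16.4 to 7.09 and 8.36 (-1.14 ± 0.14, adjusted p = 0.00116). Of this list 2 fell without dy2J 1, 6 without dy2J 2, 8 without WT 1 and 5 with no expression minimum. Pvalb and Actn3 were lost without dy2J 1, Pvalb also with no expression minimum, and Atp2a1 without any 1 of the 5 libraries.

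The single fast-fibre gene that rose was Myh2, the myosin of the most oxidative fast (IIA) fibres. It was at 80.9, 87.0 and 94.9 FPKM in WT and at 282 and 199 in dy2J (1.43 ± 0.15, adjusted p = 0.000665). In mdx Myh2 stood below WT, at 26.6 to 30.6, and the difference between dy2J and mdx was 3.01 (adjusted p = 1.89e-05). Myh1, the IIX myosin, was at 626, 624 and 886 in WT and 669 and 580 in dy2J, where the groups overlap. Of transcription factors tied to fibre type, Sox6, a known repressor of slow-fibre genes, fell from 32.9, 28.5 and 26.5 to 13.3 and 16.2 (-0.94 ± 0.14, adjusted p = 0.00278). Tead4, a TEAD factor, rose from 2.23, 1.94 and 2.06 to 4.87 and 5.08 (0.96 ± 0.12, adjusted p = 0.00106), and Vgll2, a TEAD cofactor of muscle, by 1.13 ± 0.16 (adjusted p = 0.00246). Mamstr, a MEF2 coactivator, fell from 27.3, 28.0 and 24.0 to 12.4 and 13.2 (-0.99 ± 0.17, adjusted p = 0.00426), whereas in mdx it stood at 38.6 to 57.9.

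Genes of regenerating fibres, which re-express embryonic isoforms after damage, were higher. Of 17 tested members 12 rose and 0 fell, with a median of 1.93, and 12 to 13 rose when 1 library was left out. Embryonic myosin Myh3 was at 0.168, 0.353 and 0.330 FPKM in WT and at 12.7 and 7.86 in dy2J (3.10 ± 0.37, adjusted p = 0.000931). Myl4, an embryonic light chain, went from 2.64, 4.51 and 3.67 to 47.3 and 45.5 (3.38 ± 0.16, adjusted p = 6.92e-06). The fusion genes myomaker (Tmem8c in the table) and myomixer (Gm7325) rose by 2.70 ± 0.25 and 2.08 ± 0.27, from levels under 0.6 FPKM in WT to 7.97 and 8.99, and 3.26 and 5.85. As in every called gene, the groups did not overlap for these, which is no separate support.

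Other markers of that state gave no call: Cdh15, a cadherin of myoblasts, differed by 0.02 ± 0.14 (adjusted p = 0.937, without WT 1, whose value was dropped as a failed estimate), and Actc1, cardiac actin, by -0.56 ± 0.30 (adjusted p = 0.2). Of the myogenic regulators, Myog rose from 2.09, 2.72 and 2.12 to 15.4 and 14.2 (2.26 ± 0.16, adjusted p = 6.49e-05). Myod1 was at 8.11, 8.87 and 7.14 in WT and 12.1 and 10.6 in dy2J (adjusted p = 0.132). Pax7, the marker of satellite cells, lay under the minimum, at 0.745, 0.573 and 0.597 in WT and 0.260 and 0.268 in dy2J. In this bulk tissue fewer cells of a type and less RNA per cell cannot be told apart. Of 16 tested satellite-cell and myogenic genes 3 rose and 2 fell, and without WT 1, WT 2, dy2J 1 or dy2J 2 only 1 fell. The number that rose was 2 without either dy2J pool, 6 without mdx 1 and 7 in a fit of the dy2J and WT libraries alone.

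Igf2, a fetal growth factor re-expressed in regenerating muscle, rose from 5.56, 6.56 and 7.66 to 27.6 and 27.8 (1.93 ± 0.17, adjusted p = 0.000257), with mdx higher still at 94.6 to 135. The cell-cycle inhibitor Cdkn1a rose from 5.39, 13.6 and 9.77 to 49.2 and 42.4 (2.22 ± 0.29, adjusted p = 0.00153), and Eda2r, an ectodysplasin receptor gene and p53 target, by 1.21 ± 0.11 (adjusted p = 0.000342). Their lists went both ways. Of 26 p53-target and apoptosis genes, with Cdkn1a, 5 rose and 3 fell, and of 24 atrophy, FoxO and glucocorticoid genes, with Eda2r, 2 rose and 4 fell. Gadd45g, of the p53 list, fell (-1.49 ± 0.29, adjusted p = 0.00783, limma), a call lost without either dy2J pool. With no expression minimum 3 and 2 rose and 2 and 1 fell. Among 19 cell-cycle genes 8 rose, of which Tubb5, a tubulin gene, is an example (1.20 ± 0.19, adjusted p = 0.00346). That count was 1 without either dy2J pool, 2 without WT 1, 4 without WT 2, 3 without WT 3 and 3 with no expression minimum. It was 15 without mdx 1 or mdx 2, 16 in a fit of the dy2J and WT libraries alone and 13 with a pseudocount of 0.1, and 1 fell without mdx 1 or mdx 3. Pttg1, the securin gene, stood apart from the list with 2.96, 2.46 and 2.47 in WT and 49.4 and 52.0 in dy2J (3.83 ± 0.23, adjusted p = 2.83e-05). In mdx it was at 3.30 to 7.43.

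Of 20 neuromuscular junction and denervation genes 6 rose and 3 fell. Ncam1, an adhesion molecule that spreads over denervated and regenerating fibres, went from 15.3, 24.1 and 21.1 to 130 and 122 (2.60 ± 0.41, adjusted p = 0.00346). The acetylcholine receptor subunit Chrnd rose by 1.34 ± 0.20 (adjusted p = 0.00289) and Runx1, a factor induced by denervation, by 1.61 ± 0.21 (adjusted p = 0.00134). The junctional kinase Musk was lower (-0.44 ± 0.12, adjusted p = 0.0334), a call lost without WT 1, WT 2, WT 3 or dy2J 1. Of the 6 rises 4 remained in number without either dy2J pool, and of the 3 falls 1 without each WT library, without dy2J 1, with the replicate number as a block and with no expression minimum. Myelin genes, read for intramuscular nerve, gave 2 rises and 1 fall among 9 tested. The summed FPKM of that list was 58.4 to 62.9 in WT and 89.2 and 80.6 in dy2J. Its rises numbered 0 without dy2J 1 and 1 without any 1 of the other 4 libraries or with no expression minimum, and its fall was lost without dy2J 2.

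The interstitial matrix was raised nearly throughout. Of 29 fibrillar collagen and interstitial matrix genes, all of them tested, 27 rose and 0 fell, with a median of 1.26. When any 1 of the 8 libraries was left out 21 to 27 rose. The collagens Col1a1 and Col3a1, the bulk of scar collagen, went from 70.2, 76.7 and 63.3 to 309 and 132 and from 282, 281 and 236 to 936 and 522. Their differences were 1.52 ± 0.29 (adjusted p = 0.00751) and 1.39 ± 0.24 (adjusted p = 0.00459). The beaded-filament collagen genes Col6a1, Col6a2 and Col6a3 rose by 1.05 ± 0.19, 1.06 ± 0.18 and 1.25 ± 0.15. Fn1, fibronectin, rose from 25.8, 35.1 and 36.5 to 229 and 101 (2.21 ± 0.32, adjusted p = 0.00237). Mfap4, a microfibril-associated protein gene, and Col8a1 had the largest differences of the list, at 2.51 ± 0.19 and 2.42 ± 0.17. 

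The pools of dy2J did not carry this equally. All 29 matrix genes were higher in dy2J 1 than in dy2J 2, with a median of 0.52 on the log2 scale, where 50.1% of all tested genes were higher in dy2J 1. The summed FPKM of the list was 789 to 868 in WT, 2899 in dy2J 1 and 1671 in dy2J 2, so that both pools exceeded WT. In mdx it was 1637 to 2028. The genes without a call were P4ha1, a collagen hydroxylase gene, which differed by 0.28 ± 0.13 (adjusted p = 0.155), and Col6a6, which differed by -0.37 ± 0.13 (adjusted p = 0.071).

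**Figure D3:**
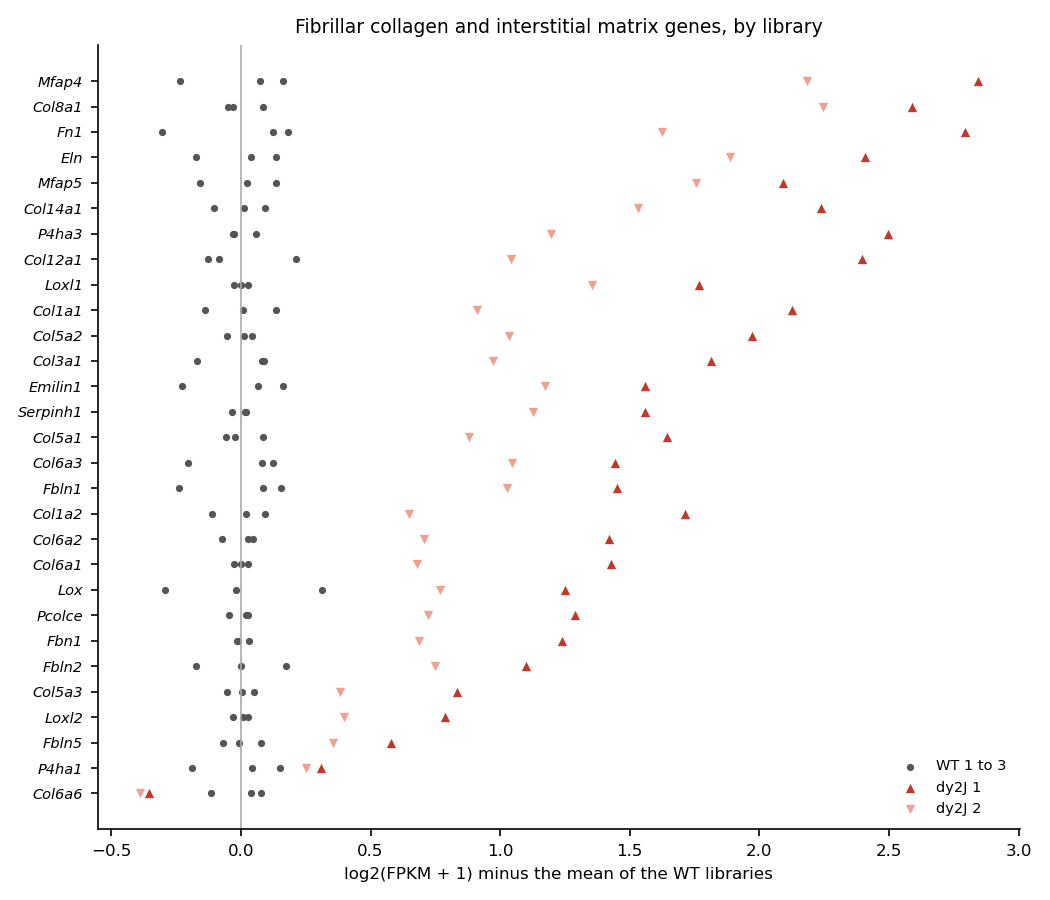
Log2(FPKM + 1) of the 29 matrix genes in each dy2J and WT library, relative to the WT mean of the gene. For all 29 genes dy2J 1 lies to the right of dy2J 2, and for 28 of them both lie to the right of the WT libraries.

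Matricellular proteins and proteoglycans, which tune matrix assembly and signalling, gave 15 rises and 0 falls among 22 tested genes, with a median of 1.40. Postn, periostin, was at 7.18, 9.26 and 13.1 in WT and at 224 and 171 in dy2J (4.22 ± 0.23, adjusted p = 1.61e-05). Tnc, tenascin-C, rose from 1.21, 2.44 and 2.21 to 14.8 and 12.5 (2.33 ± 0.32, adjusted p = 0.00181), and Bgn, biglycan, by 2.16 ± 0.23 (adjusted p = 0.000663). In contrast Dcn, decorin, the most abundant gene of the list, was at 407 to 448 in WT and 565 and 441 in dy2J, which overlap. Cthrc1 and C1qtnf3, secreted proteins of fibroblasts, were among the 12 largest such rises (3.54 ± 0.45 and 3.73 ± 0.41), and both were far higher in dy2J 1 (31.5 and 63.9) than in dy2J 2 (7.58 and 19.6). Without dy2J 1 only 7 of the list rose. Tendon genes moved alongside: 5 of 12 rose, all 12 were higher in dy2J 1 than in dy2J 2, and their summed FPKM was 182 to 273 in WT and 762 and 373 in dy2J. Without dy2J 1 the tendon count was 3 and without dy2J 2 it was 8. The defining tendon marker Tnmd was at 13.9 to 17.3 in WT and at 48.0 and 16.1 in dy2J, and whether tendon in the sample has a part in the matrix values was not tested.

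Matrix-degrading enzymes and their inhibitors rose as well, 11 of 20 tested genes with 1 lower. Timp1, an inhibitor of metalloproteinases, went from 1.27, 8.04 and 4.14 to 43.5 and 38.4 (3.15 ± 0.48, adjusted p = 0.003). The collagenase-activating Mmp14 rose by 1.54 ± 0.25 (adjusted p = 0.00385) and the gelatinase Mmp2 by 1.26 ± 0.22 (adjusted p = 0.00516). The macrophage elastase Mmp12 was at 0.272 to 0.450 in WT, 1.51 and 1.35 in dy2J (adjusted p = 0.118) and 18.2 to 56.3 in mdx. The count of rises was 7 without dy2J 1, and 0 fell without WT 2, WT 3, mdx 2 or either dy2J pool. Among 24 genes of the TGF-beta family, which drives fibrosis and limits muscle growth, 8 rose and 5 fell. Mstn, myostatin, fell from 43.2, 39.1 and 43.4 to 12.2 and 12.5 (-1.68 ± 0.15, adjusted p = 0.000289), and Fstl1, a follistatin-like protein, rose by 1.27 ± 0.18 (adjusted p = 0.0023). The ligand Tgfb1 was at 3.03, 4.92 and 4.30 in WT and 7.75 and 6.68 in dy2J and did not pass (adjusted p = 0.0584). Of these counts 1 rise remained in number without dy2J 1 and 4 without WT 1, and 2 falls without either dy2J pool, 3 without WT 3 and 3 with no expression minimum.

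Markers of fibro-adipogenic progenitors, the mesenchymal cells that lay down matrix and form fat, gave 9 rises among 17 tested and 0 falls. Dpt, dermatopontin, rose by 1.20 ± 0.12 (adjusted p = 0.000518) and Lum, lumican, by 1.35 ± 0.15 (adjusted p = 0.00077). Their defining marker Pdgfra was at 6.84 to 8.00 in WT and 10.5 and 8.91 in dy2J (0.34 ± 0.12, adjusted p = 0.071). The list summed to 795 to 870 FPKM in WT and to 1296 and 1088 in dy2J. The count was 3 without dy2J 1, 5 without WT 1 or WT 2, 6 without WT 3 and 6 with no expression minimum.

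Macrophage genes were higher, though in mdx they were higher still. Of 27 macrophage and monocyte genes 20 rose and 0 fell, with a median of 1.34 in dy2J and 2.33 in mdx. The lysosomal protease Ctss was at 8.81, 11.8 and 9.28 in WT, at 52.9 and 46.6 in dy2J and at 110 to 280 in mdx (2.22 ± 0.32 for dy2J minus WT, adjusted p = 0.00252). Ms4a7, a macrophage surface gene, rose by 2.29 ± 0.25 (adjusted p = 0.000665) and Lgals3, galectin-3, by 2.11 ± 0.32 (adjusted p = 0.00299). The defining marker Cd68 went from 7.10, 8.71 and 9.88 to 26.1 and 25.5 (adjusted p = 0.0123), a call lost without either dy2J pool. The list summed to 263 to 321 FPKM in WT and to 807 and 694 in dy2J. Only 5 members rose without dy2J 1 and 13 without dy2J 2. In the direct contrast 15 of the 27 were lower in dy2J than in mdx and 0 were higher, where 3.89% of all tested genes were lower and 3.19% higher.

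The antigen-presenting and complement genes followed. All 6 tested MHC class II genes rose, H2-Ab1 from 29.2, 38.3 and 32.5 to 110 and 87.2 (1.54 ± 0.14, adjusted p = 0.000342), and 5 to 6 rose when 1 library was left out. Of 16 complement genes 13 rose and 0 fell. The classical-pathway starter C1qa rose by 1.41 ± 0.20 (adjusted p = 0.00237) and C4b by 1.65 ± 0.26 (adjusted p = 0.00354), while 4 of the list rose without dy2J 1. Among 18 chemokine and cytokine genes 6 rose and 1 fell. Ccl8, a monocyte attractant, went from 4.89, 6.02 and 7.65 to 57.8 and 38.2 (2.76 ± 0.20, adjusted p = 7.85e-05), and Cxcl16 rose by 1.82 ± 0.14 (adjusted p = 0.00015). Without dy2J 1 that count of rises was 3. Of 28 interferon-response genes 14 rose and 1 fell, with Ifi27 from 40.1, 35.3 and 46.2 to 105 and 80.2 (1.17 ± 0.16, adjusted p = 0.00216). The interferon count was 5 without either dy2J pool, 8 without WT 2, 7 without WT 3, 9 with the replicate number as a block and 8 with no expression minimum.

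Of other blood cells, genes of T, NK and B cells were barely present and neutrophil genes were uneven between pools. None of the 17 T and NK cell genes or the 8 B cell genes found in the table reached the minimum, and their summed FPKM was at most 7.87 and 2.64 in any library. The neutrophil gene S100a8 was at 1.25, 24.6 and 2.76 in WT and 1.76 and 35.7 in dy2J, so it varied within groups more than between them, and 0 of 5 neutrophil genes changed. Of 6 erythroid genes, which report blood in the tissue, 4 rose and 1 fell. Hba-a1 was at 94.0, 92.7 and 146 in WT and 196 and 191 in dy2J (0.83 ± 0.23, adjusted p = 0.0302), a call lost without WT 1, WT 2 or either dy2J pool. The erythroid count of rises was 0 without WT 2 or either dy2J pool, 1 without WT 1 and 2 with no expression minimum, the fall was lost without mdx 1 or any 1 of the 5 dy2J and WT libraries, and globin genes are near-identical copies whose reads could have been split between them.

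Lipid genes separated dy2J from both other groups. Of 26 fatty acid and lipid synthesis genes 13 rose and 3 fell, and 10 were higher in dy2J than in mdx and 1 lower. Fasn, fatty acid synthase, was at 8.36, 12.8 and 24.9 FPKM in WT, 138 and 101 in dy2J and 8.91 to 10.3 in mdx (2.99 ± 0.35 for dy2J minus WT, adjusted p = 0.000864). The enzymes and carriers that feed it moved with it. Slc25a1, the mitochondrial citrate carrier, rose by 2.16 ± 0.27, Acly, which cleaves citrate to acetyl-CoA, by 1.52 ± 0.16 and Acaca, which makes malonyl-CoA, by 1.62 ± 0.25. Elovl6, which lengthens the product, went from 0.244, 0.494 and 0.529 to 4.17 and 3.98 (1.84 ± 0.15, adjusted p = 0.000192). Srebf1, the transcription factor gene known to drive these enzymes, was lower in dy2J, at 27.8, 27.1 and 35.2 in WT and 19.7 and 17.2 (-0.67 ± 0.14, adjusted p = 0.0104), a call lost without either dy2J pool. Lpin1, a phosphatidate phosphatase, fell by 1.03 on the log2 scale. Of the list 6 rose without dy2J 1, 7 without dy2J 2 and 8 with no expression minimum, and 1 fell without either dy2J pool and 5 without mdx 3 or in a fit of the dy2J and WT libraries alone.

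**Figure D4:**
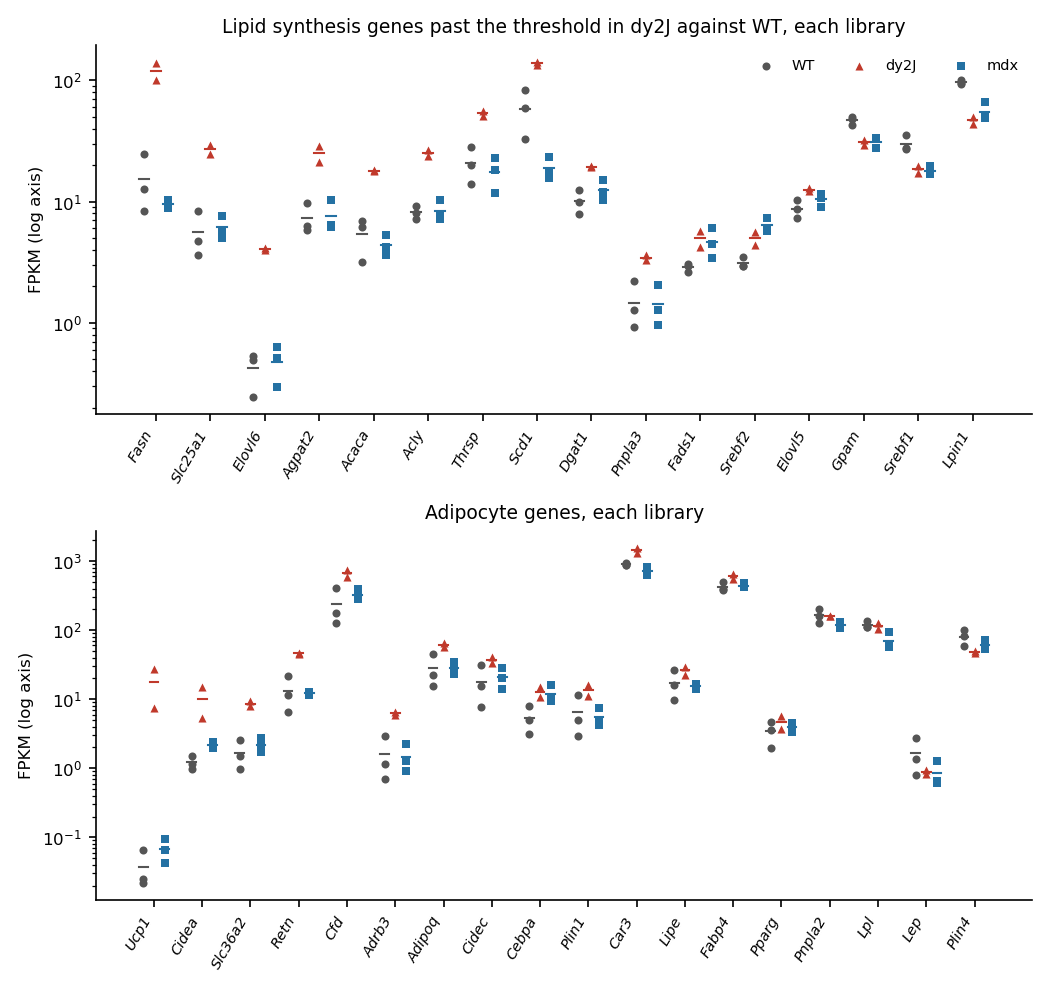
FPKM (log axis) in every library, with a line at each group mean, of the 16 lipid synthesis genes that passed the test (top) and of the 18 adipocyte genes (bottom). Fasn stands above 100 FPKM in both dy2J pools and at 24.9 or less in all other libraries; Ucp1 reaches 27.7 and 7.4 in dy2J and stays under 0.1 elsewhere.

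Adipocyte markers rose in the same libraries. Of 18 tested adipocyte genes 10 rose and 1 fell, with a median of 1.13 in dy2J and 0.04 in mdx, and the list summed to 1725 to 2440 FPKM in WT, 3562 and 2997 in dy2J and 1723 to 1953 in mdx. Ucp1, the uncoupling protein of brown and beige fat, was at 0.0657 or less in WT and at 27.7 and 7.40 in dy2J (3.90 ± 0.39, adjusted p = 0.000465). Cidea, a lipid-droplet protein of brown fat, went from 1.14, 0.975 and 1.53 to 14.9 and 5.38 (2.19 ± 0.31, adjusted p = 0.00224). The defining marker Adipoq, adiponectin, was at 15.8, 22.5 and 45.4 in WT and at 65.9 and 57.0 in dy2J (1.24 ± 0.35, adjusted p = 0.0349), a call lost without WT 1, WT 2 or either dy2J pool. Pparg, the master regulator of fat cells, was at 1.95, 3.55 and 4.72 in WT and 5.64 and 3.71 in dy2J, which overlap. The count of rises was 3 without dy2J 1, 5 without dy2J 2, 6 without WT 1, 5 without WT 2 and 6 with no expression minimum, and the fall was lost without WT 2, WT 3, mdx 1 or either dy2J pool. Whether fat tissue in the pools has a part in the lipid synthesis values was not tested.

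Genes for burning fuel gave few calls, where 12.8% of all tested genes rose and 10.2% fell. Of 45 oxidative phosphorylation genes 1 rose, Cox6a1, the non-muscle isoform of a cytochrome oxidase subunit (1.07 ± 0.18, adjusted p = 0.00439), and 0 fell, with a median of -0.21. With quantile normalization 2 rose and 3 fell, in a fit of the dy2J and WT libraries alone 2 rose and 17 fell, and 0 rose without dy2J 1. Without mdx 2, 2 rose and 13 fell, and without mdx 3, 2 fell. Of 30 fatty acid uptake and oxidation genes 1 rose and 2 fell. Without dy2J 1 neither direction kept a call, and without dy2J 2, 0 rose and 1 fell. The rise was also lost without WT 1, and 1 fell without WT 2 or WT 3. Without mdx 2, 2 rose, and in a fit of the dy2J and WT libraries alone 4 fell. Of 31 redox and NADPH genes 9 rose and 3 fell, and 13 rose and 6 fell in a fit of the dy2J and WT libraries alone. Idh2, a mitochondrial NADPH source of that list, rose from 49.1, 60.8 and 56.1 to 124 and 125 (1.16 ± 0.13, adjusted p = 0.000665), while mdx stayed at 48.1 to 58.1. Nox4, an NADPH oxidase that makes hydrogen peroxide, rose by 1.31 ± 0.15 (adjusted p = 0.00079).

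Glycolysis and glycogen genes, abundant in fast fibres, gave 14 falls and 3 rises among 29. Phka1, a subunit of the kinase that switches on glycogen breakdown, fell from 210, 178 and 171 to 72.0 and 88.8 (-1.20 ± 0.19, adjusted p = 0.0034). Ppp1r3a, which targets a phosphatase to glycogen, fell from 97.0, 95.7 and 97.1 to 38.1 and 44.6 (-1.21 ± 0.12, adjusted p = 0.000405). Ldhb, the lactate dehydrogenase of oxidative fibres, was higher, at 84.3, 81.5 and 92.9 against 158 and 136 (0.76 ± 0.13, adjusted p = 0.00413, lost without dy2J 1), and in mdx it was at 38.7 to 46.4. The number of falls was 9, 8 and 9 without WT 1, WT 2 and WT 3, 4 and 8 without dy2J 1 and dy2J 2, 8 with the replicate number as a block and 8 with no expression minimum, and 1 rose without dy2J 1. Calcium-handling genes of the fast-fibre triad fell in 11 of 23 cases and 0 rose. Camk2a, a calcium-dependent kinase, fell from 167, 151 and 142 to 56.3 and 69.6 (-1.28 ± 0.15, adjusted p = 0.00106), Jph1, which ties the triad membranes together, by 0.95 on the log2 scale and Orai1, the store-operated calcium channel, by 0.82. In mdx Orai1 stood at 36.4 to 49.9, above the 19.2 and 19.5 of dy2J (adjusted p = 0.00225). The count of falls was 4 without dy2J 1 and 7 without dy2J 2, and 1 rose without any 1 mdx library.

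The largest fall among called genes with no missing value, predicted and unnamed genes left out, was in polyamine synthesis. Of 24 genes of polyamine, creatine and amino acid metabolism 4 rose and 6 fell, and 2 rose without WT 3, dy2J 1 or dy2J 2. Amd1, the decarboxylase that supplies spermidine and spermine synthesis, was at 215, 119 and 169 FPKM in WT and 21.0 and 28.3 in dy2J (-2.69 ± 0.34, adjusted p = 0.00123). Smox, spermine oxidase, fell from 331, 229 and 287 to 53.8 and 69.5 (-2.17 ± 0.27, adjusted p = 0.00123). Odc1, the first enzyme of the pathway, fell by 0.93 on the log2 scale, whereas Sat1, which acetylates polyamines for export, rose by 0.80 ± 0.12 (adjusted p = 0.00318). Oaz2-ps, a pseudogene of an antizyme that restrains Odc1, was at 3.81 to 5.26 in WT, 0.0686 and 0.115 in dy2J and 2.19 to 4.57 in mdx. Pseudogene reads can be split with the parent gene, and those of Amd1 with its near-identical copy Amd2. The other large falls were in muscle genes of varied role. Mylk4, a myosin light chain kinase, fell from 423, 494 and 574 to 93.2 and 113 (-2.25 ± 0.23, adjusted p = 0.000469), Nt5c1a, a muscle nucleotidase that makes adenosine, from 16.3, 17.4 and 16.5 to 2.60 and 2.89, and Mettl21c, a muscle methyltransferase, by 1.78 on the log2 scale.

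Of 20 circadian genes 10 fell and 1 rose. Dbp, an output factor of the clock, fell from 33.4, 35.2 and 38.6 to 16.8 and 14.4 (-1.15 ± 0.18, adjusted p = 0.0035), Bhlhe41, a repressor, by 1.27 and Tef, a relative of Dbp, by 1.02 on the log2 scale. The hour of dissection was not stated in the labels. The count of falls was 6 without WT 2, 3 without dy2J 1 and 6 without dy2J 2, the 1 rise was lost without either dy2J pool, and 2 rose without WT 1. Of 22 immediate-early genes, which answer quickly to stimuli, 14 rose and 0 fell. Fos went from 1.66, 3.34 and 2.77 to 15.2 and 18.2 (2.33 ± 0.28, adjusted p = 0.00101) and Egr1 rose by 1.64 ± 0.26 (adjusted p = 0.00323). That count was 5 without either dy2J pool and 9 with no expression minimum.

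Stress genes rose in part. Of 26 genes of the unfolded protein and integrated stress response 12 rose and 1 fell. Asns, asparagine synthetase, went from 0.769, 1.42 and 1.36 to 4.92 and 4.83 (1.44 ± 0.18, adjusted p = 0.0011). Only 3 rose without dy2J 1 and 8 without dy2J 2, and the fall did not hold without WT 2, WT 3, mdx 1 or either dy2J pool, while 2 fell without mdx 2. Of 24 chaperone genes 8 rose and 1 fell. Hspb7, a small heat shock protein of muscle, went from 78.4, 110 and 121 to 316 and 387 (1.77 ± 0.19, adjusted p = 0.000613), and Cryab, another that guards the Z-disc, from 610, 557 and 676 to 970 and 1321 (0.88 ± 0.16, adjusted p = 0.00555, lost without dy2J 2). In mdx both stayed near or below WT, at 99.5 to 119 and 451 to 493. The chaperone count of rises was 4 without WT 1 or WT 3, 2 without dy2J 1, 1 without dy2J 2 and 5 with no expression minimum or without mdx 1. The fall was lost without any 1 of the 5 dy2J and WT libraries, while 2 fell without mdx 2 or mdx 3. Ribosomal protein genes shifted by small steps, with 9 of 28 higher and a median of 0.33. The count was 0 without dy2J 1, 1 without dy2J 2 or WT 2, 3 without WT 1 or WT 3, 3 with the replicate number as a block, 16 with quantile normalization, 17 without mdx 2, 15 without mdx 3 and 19 in a fit of the dy2J and WT libraries alone.

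Vessel genes moved in both directions. Of 21 endothelial genes 5 fell and 2 rose. The defining marker Cdh5 was at 29.1, 36.5 and 35.9 in WT and 21.7 and 22.1 in dy2J (-0.60 ± 0.13, adjusted p = 0.0124, lost without either dy2J pool), whereas Aplnr, the apelin receptor gene, rose from 7.86, 7.32 and 4.88 to 17.9 and 18.8 (1.35 ± 0.21, adjusted p = 0.00326). The summed FPKM of the list was 460 to 645 in WT and 451 and 476 in dy2J, which overlap, and its falls numbered 0 without either dy2J pool, 1 without WT 2, 2 without WT 3 and 3 with no expression minimum. Of 15 smooth muscle and pericyte genes 3 rose and 4 fell, and their sums were 918 to 1044 in WT and 1132 and 1221 in dy2J. Acta2, smooth muscle actin, rose by 1.16 ± 0.15 (adjusted p = 0.00138), while the defining marker Myh11 differed by -0.03 ± 0.15 (adjusted p = 0.896). Without either dy2J pool the counts were 1 and 1, and the falls numbered 1 without WT 1, 2 without WT 2 or WT 3 and 2 with the replicate number as a block, and the rises 2 without WT 1 or WT 3.

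The positions of called genes were also read, against a share of 23.0% called over all tested genes. In 215 windows of 10 Mb with at least 20 tested genes the share of called genes ran from 4.17% (chromosome 10, 0 to 10 Mb) to 50% (chromosome 4, 50 to 60 Mb, 15 of 30 genes). The window holding Lama2 (chromosome 10, 20 to 30 Mb) had 10 of 26 genes called, or 38.5%. Windows on other chromosomes were higher, such as chromosome 15, 0 to 10 Mb, with 11 of 25 (44%). With so few genes in a window, a few calls shift its share widely, so no enrichment near Lama2 is read from it. These shares are a description with no test.

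The dy2J and mdx comparisons with WT share the same 3 WT pools, so the contrast of dy2J with mdx was tested directly in the same fit. It called 7.08% of tested genes. Of the 94 genes named by a fixed rule (Lama2, the 12 largest rises, the 12 largest falls and up to 2 leading called members per list) 38 differed between the models, and 18 did without dy2J 1. Apart from Lama2, the 94 genes were chosen by their change in dy2J against WT, and the same dy2J pools enter this contrast. Their share that differed is therefore not comparable with that of all tested genes. Higher in dy2J were Myl2 by 6.10, Myh7 by 5.76, Ucp1 by 3.86, Fasn by 3.49, Pttg1 by 3.11, Csrp3 by 2.71 and Myoz2 by 2.50. The slow-fibre list held 11 genes higher in dy2J than in mdx and 0 lower. Lower in dy2J were Oaz2-ps, Igf2, Myl4 and Ctss, with dy2J minus mdx of -2.06, -1.95, -1.72 and -1.71. The regenerating-fibre list held 8 lower and 0 higher. Postn, Timp1, Ncam1 and Col1a1 did not pass in this contrast, with differences of 0.67, -0.27, -0.43 and 0.00 and adjusted p of 0.114, 0.761, 0.562 and 0.999.

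**Figure D5:**
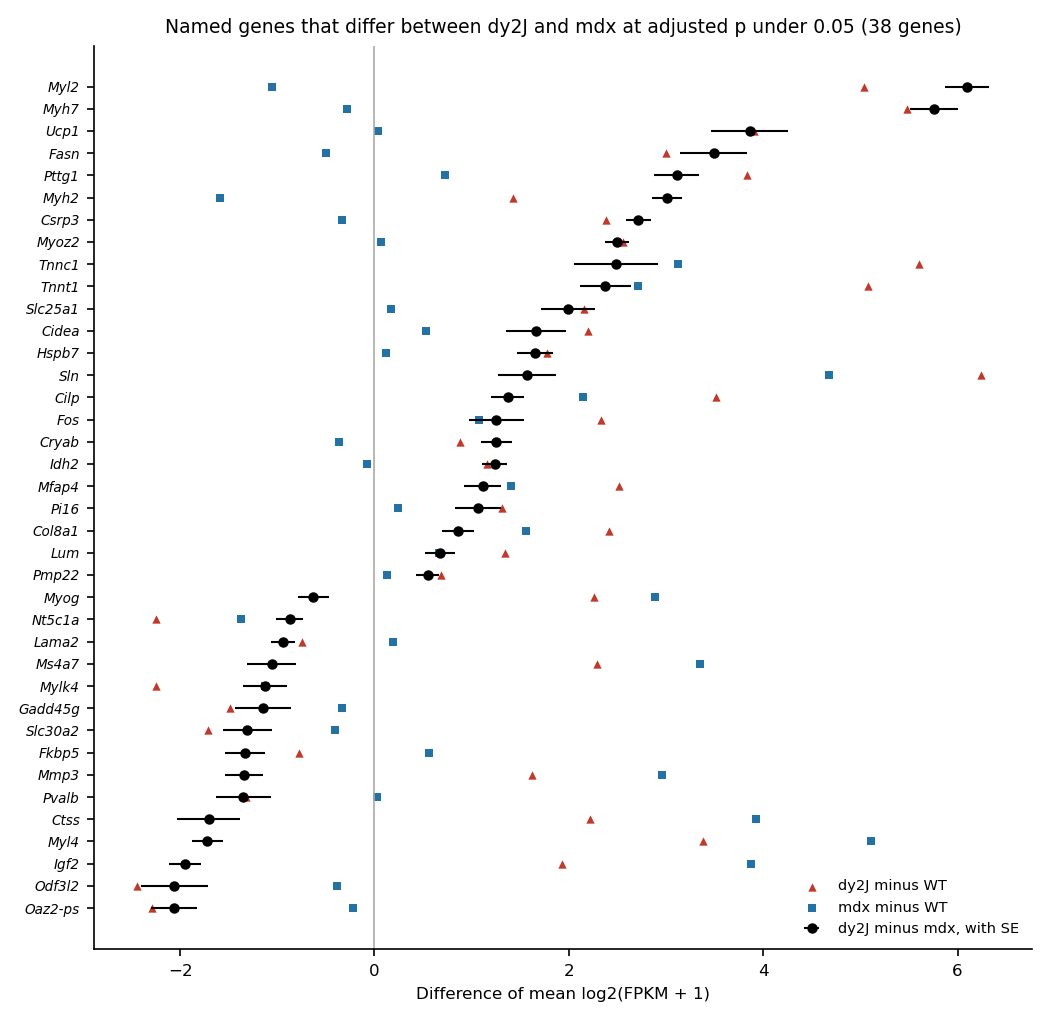
The 38 named genes whose difference between dy2J and mdx passed the test: black points give dy2J minus mdx with its SE, triangles dy2J minus WT and squares mdx minus WT, on the log2(FPKM + 1) scale. Myl2 and Myh7 lie farthest to the right and Oaz2-ps and Odf3l2 farthest to the left.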

How the data were processed

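Each of the 8 libraries holds quadriceps RNA pooled from several mice of 1 genotype, and was grouped by its labels. The authors deposited 1 table with an FPKM value per gene and library. The submitters' processing notes list the build GRCm38 and, with no role or order, TopHat2 2.0.13, Cufflinks 2.2.1, Cuffdiff, Cuffnorm and Trim Galore 0.3.7. Strand use, scaling between libraries and dissection batches are not given in the sources used here. Whole reads could not be recovered from the FPKM values, so the depth of each library is unknown and no interval for counting error is given. Summed FPKM was 556218 to 785513 per library. The deposited test columns were not used.

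GENCODE M21 gave a name to 8673 of the 8987 entries that had none. A value of exactly 0 was set to missing where the median of the gene's nonzero values was at least 5 FPKM, or within a run of genes at 0 in WT 1. Of the tested genes 59 had a missing value, and 10 of them were called. Log2(FPKM + 1) was fitted with limma 3.58.1 in R 4.3.3 (all 8 libraries, a term per genotype, mean-variance trend, two-sided, 5 residual degrees of freedom), which understates changes of low genes. The Benjamini-Hochberg adjustment ran over 12227 genes. An exact permutation test of 2 pools against 3 could not go below p = 0.1. On simulated data 80 of 100 genes changed by 1 log2 unit and 95 of 100 changed by 2 were found, with 10 false calls among 185, over 11753 genes. The simulation drew independent normal values with no strain or pool effect, and changed only genes above a set WT level. Far fewer genes were changed in it than were called in the data. It checks that the fit runs as intended and does not give the error rate of the calls above. Tables and figures were made in Python 3.11.15 with pandas 2.3.3 and matplotlib 3.10.9.

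The genes and the 44 lists (949 symbols, 939 found) were chosen with earlier results of these data known. The named-gene rule takes Lama2, the 12 largest rises and the 12 largest falls among called genes with a symbol, not a predicted model and with no missing value, and, from every list where 3 or more members were called, the 2 that changed most. The text gives part of these 94, and all other genes it names were chosen after their values were seen. The alternatives tried were a pseudocount of 0.1 or 0.5, omitting the expression minimum, a mean of at least 5 FPKM, quantile normalization, median ratio rescaling, the dy2J and WT libraries alone, no trend, other treatments of 0, the replicate number as a block, and each library left out. Leaving out a dy2J pool leaves 1, which is then assumed to vary like the other groups. Overlapping, antisense and near-identical genes are uncertain. Some members of the lists are counted in them but not reported here by name.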

Additional observations from a re-analysis of the deposited data

Results flagged for a closer look

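In 3 of the named genes dy2J and mdx each differed from WT past the threshold in limma but in opposite directions, and the difference between dy2J and mdx passed too. Myl2, the slow light chain, was above WT in dy2J and below it in mdx, with dy2J minus mdx of 6.10 (adjusted p = 6.43e-06). Myh2, the IIA myosin, went the same ways, with a difference of 3.01 (adjusted p = 1.89e-05). Fkbp5, a glucocorticoid-induced chaperone gene, was at 15.7, 20.6 and 24.1 FPKM in WT, 10.1 and 12.4 in dy2J and 24.5, 28.9 and 37.1 in mdx, with a difference of -1.33 (adjusted p = 0.00763). Its call in dy2J against WT (adjusted p = 0.0282) was lost without WT 2, WT 3, dy2J 1 or dy2J 2 and with no expression minimum. Cryab, also a named gene, had every dy2J pool above WT and every mdx pool below it, with dy2J minus mdx of 1.25 (adjusted p = 0.00285), but mdx against WT missed the threshold (adjusted p = 0.0693). Outside the named genes, and chosen after their values were seen, Ldhb was higher than WT in dy2J and lower in mdx, and Mamstr the reverse, with dy2J minus mdx of 1.74 (adjusted p = 0.000144) and -1.75 (adjusted p = 0.000601).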

How the results depend on the processing

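Lama2 stayed lower in dy2J and past the threshold in every alternative run, with differences from -0.85 to -0.70 and adjusted p from 0.00145 to 0.0418 (limma). The number of genes higher in dy2J was 1567, and 954 with a mean of at least 5 FPKM, which tests fewer genes. The number lower was 1250, and 746 with the replicate number as a block. Leaving out 1 library moved the counts between 458 and 1864 higher and between 253 and 1555 lower, the lowest of both without dy2J 1 and the highest without mdx 2. Named genes that differed between dy2J and mdx numbered 38, and 18 to 41 when 1 library was left out. Of the 93 named genes other than Lama2, 65 stayed past the threshold in every alternative that gave a value and 0 reversed. The rest were lost mainly without dy2J 1 (26 genes) or dy2J 2 (18). Of the 396 called list members 152 stayed called without each of the 5 dy2J and WT libraries in turn. Deviations of same-numbered pools correlated with r of -0.0781 and 0.0362 between WT and dy2J, -0.102 and -0.183 between dy2J and mdx, and 0.117, 0.154 and 0.0333 between WT and mdx. Deviations cancel out within a group, and those of dy2J 1 and dy2J 2 mirror each other (WT 1 with dy2J 2 gave 0.0781). These values therefore cannot decide whether same-numbered pools share a batch. The block was run as an alternative and not as a known pairing. Apart from these counts the causes were not tested. With the depth unknown, differences in genes near 1 FPKM carry a counting error that was not measured.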
